A study of Mus musculus with 19 samples.

Results

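The SINE subfamilies are the 35 rows of class SINE among the 1071 transposable element (TE) subfamilies counted in mouse bone-marrow RNA libraries. They were chosen by the class in the name of each row, a rule that uses no values, although earlier results of these data were known. All 35 were listed in every library and passed the low-count filter in every comparison. By family they are 16 rows of the Alu family (the mouse B1 elements and their relatives), 5 of the B2 family, 4 of B4, 4 of ID, 4 of MIR and 2 of Deu. The 1 row whose class is written with a question mark, MER131, was left out. The study asked what mutant ASXL1, a chromatin regulator altered in clonal hematopoiesis, does in blood cells.

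Libraries came from mice labelled MT (mutant ASXL1) or WT (wild type), and the labels do not give the allele, its promoter, the strain or the sex. Myeloid cells sorted for Cd11b were taken at 4 months (young, 3 MT and 4 WT) and at 18 months (old, 3 MT and 3 WT). LK cells, which lack lineage markers and carry c-Kit, were taken at 18 months (3 MT and 3 WT). Whether replicates are separate animals is not stated, so the p-values below measure the spread between these libraries. The gene counts of a library lay between 26251822 and 38347903 in young cells, 41909460 and 68260809 in old cells and 31853263 and 59882448 in LK cells, and its SINE counts between 396116 and 2358505. At 18 months WT replicates 2 and 3 were close to each other over TE subfamilies (chi-square per degree of freedom 2.24 in Cd11b and 2.79 in LK cells) and farther from replicate 1 (28.2 to 29.1 and 17.7 to 19.3). Over genes, MT replicates 2 and 3 of 18 months were also closest to each other (6.39 in Cd11b and 4.52 in LK cells). They were farther from MT replicate 1 (13.7 to 16.3 and 24.9 to 25.2). Results are therefore also given below without WT replicate 1 and with replicates 2 and 3 of each group summed. The defining markers were present as the labels say: 9 myeloid markers summed to between 35975 and 48511 CPM in young Cd11b, 93943 and 116164 in old Cd11b and 1468 and 5441 in LK cells. The 6 progenitor markers summed to between 3418 and 5882, 848 and 1131, and 13292 and 16664 CPM. CPM here means the count divided by the gene counts of the same library, times 1e6.

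SINEs are short interspersed elements that were copied into the genome through RNA and that borrow the copying enzyme of LINE-1. They carry an internal promoter for RNA polymerase III, with an A box and a B box that transcription factor TFIIIC binds, and most copies are silenced by DNA methylation and by histone H3 lysine 9 methylation. B1 derives from 7SL RNA, the RNA of the signal recognition particle, and B2, B4, ID, MIR and Deu derive from tRNA or related small RNAs. Many copies also lie inside genes and are transcribed by RNA polymerase II as part of a longer RNA, and a count per subfamily does not tell these sources apart.

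Within the Alu family the names follow age: B1_Mm is the youngest mouse B1, B1_Mus1 and B1_Mus2 come next, B1_Mur1 to B1_Mur4 are older, and B1F, PB1 and FAM are the oldest forms. Within the B2 family B2_Mm1a, B2_Mm1t and B2_Mm2 are young, and B3 and B3A are older. The consensus sequences of the subfamilies were not used here. To show the promoter element that these families share with their relatives, the mouse RNA Bc1 is printed from the GENCODE M21 transcripts (GRCm38). Bc1, an RNA polymerase III transcript related to the ID family, has 168 bases at chr7:144914470-144914637 on the plus strand. Capitals mark the core of the B box, searched as GTTCNNNNC.
Bc1: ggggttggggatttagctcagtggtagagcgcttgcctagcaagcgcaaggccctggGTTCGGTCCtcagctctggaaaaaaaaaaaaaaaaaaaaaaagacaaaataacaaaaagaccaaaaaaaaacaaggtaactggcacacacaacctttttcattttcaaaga
The motif was found 1 time on the transcribed strand of Bc1, at base 58, and 0 times on the other strand. On either strand it occurred in 38.7% of 32851 RefSeq promoters of 300 bases (GRCm38.p6), so a match alone describes little.

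SINE counts differed most between the young Cd11b libraries and all others. Per 1000 gene counts, the young WT libraries held 68.6, 55.5, 57.2 and 89.8 SINE counts and the young MT libraries 62.3, 59.0 and 78.7. The old WT libraries held 16.2, 13.9 and 14.2, the old MT libraries 15.1, 15.0 and 15.1, the LK WT libraries 11.5, 12.5 and 12.4, and the LK MT libraries 12.8, 13.4 and 12.9. WT replicate 4 and MT replicate 3 stood above the other young libraries, and in Cd11b cells MT and WT overlapped at both ages. In LK cells every MT library was above every WT library, by 0.10 in mean log2 with an SD of 0.05 within groups (3 against 3, no test). By family, the LK means of B2 (4.41 in WT, 5.29 in MT) and Alu (4.31 and 4.51) were higher in MT. Those of B4 (2.42 and 2.31), MIR (0.595 and 0.558), ID (0.331 and 0.308) and Deu (0.0431 and 0.0423) were lower. Only in B2 did the libraries not overlap (5.06 to 5.71 in MT against 4.29 to 4.50 in WT). In Alu, B4, MIR, ID and Deu they overlapped. These are bulk samples, in which fewer cells with a transcript and less of it per cell cannot be told apart.

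Between cell types, the shares of the B2 and B4 families in SINE counts moved in opposite directions. The Alu family made up 37.4% to 39.1% of SINE counts in all Cd11b libraries and 33.4% to 36.5% in LK libraries. The B2 family rose from 23.3% to 26.6% in Cd11b libraries to between 34.5% and 42.8% in LK libraries, without overlap, while B4 went from between 25.2% and 26.7% to between 17.2% and 20.7%. MIR, an ancient family shared among mammals, made up 6.71% to 7.30% in Cd11b and 4.09% to 5.11% in LK libraries. ID made up 2.25% to 3.35% of SINE counts in all libraries, and Deu, the oldest family, 0.112% to 0.457%. These shares are descriptions with no test.

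**Figure D1:**
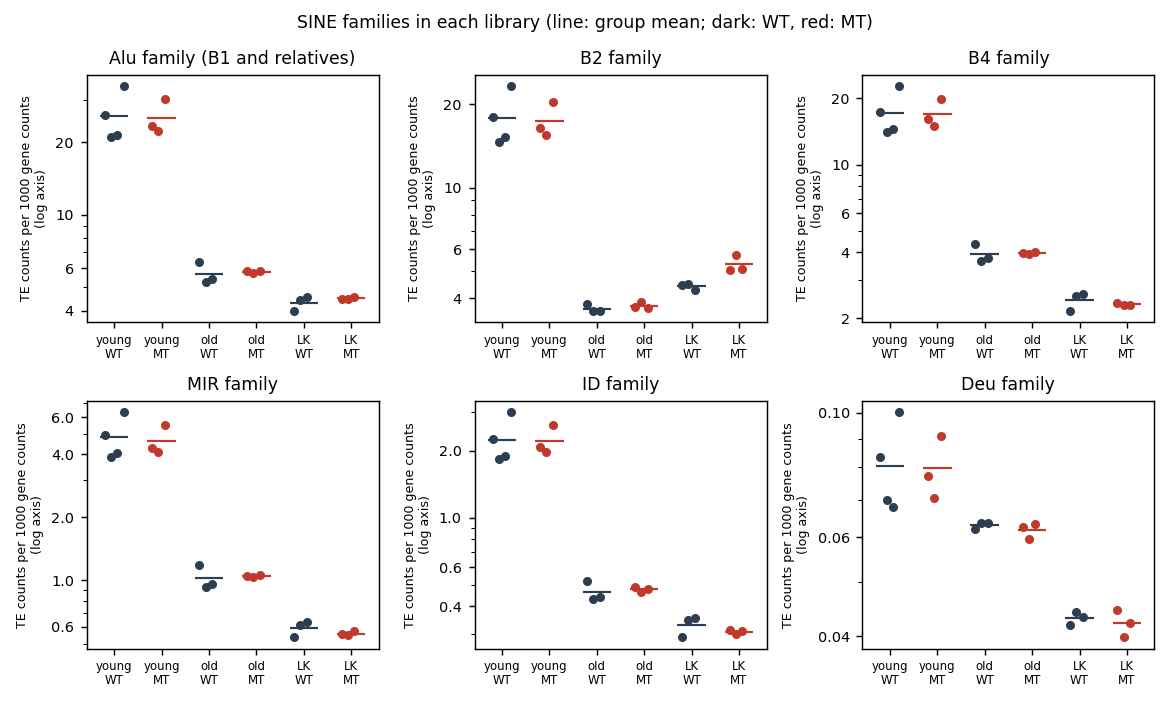
SINE counts of each family per 1000 gene counts (log axis) in each of the 19 libraries, by group; each point is 1 library and each line a group mean. Young Cd11b libraries are highest in every family, and the B2 family is the one in which LK libraries (4.29 to 5.71) lie above old Cd11b libraries (3.59 to 3.85). These values carry none of the factors of the fits. In the fit of LK against Cd11b cells (WT, 18 months), 2 of the 5 B2 rows were higher and 3 lower, with a median log2 fold change of -0.64.

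In LK cells, 6 of the 35 SINE subfamilies rose in MT and none fell: B1_Mm, B1_Mus1, B1_Mus2, B2_Mm1a, B2_Mm1t and B2_Mm2, which are the young B1 and B2 named above (edgeR quasi-likelihood test, adjusted p under 0.05 over 814 TE subfamilies). That is 17.1% of the SINE rows, beside 20% of all TE subfamilies tested, so SINEs as a class were not called more often than other TEs. In the direction higher, 15.2% of all TE subfamilies were called, and 4.79% were lower. With library sizes and factors from the TE counts themselves, 5 SINE subfamilies were higher and 3 lower. The other 29 SINE subfamilies had log2 fold changes from -0.37 to 0.08 with a median of -0.04, and 3 of them were above 0. In all, 9 of 35 values were above 0, beside 59.1% of all TE subfamilies. The median was -0.03 over all 35 and 0.08 over all TE subfamilies tested. Over the 6 called rows it was 0.40, a value that follows from their being called. The age groups were set with earlier results of these data known, so the match of calls and age was not tested.

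B1_Mm stood at 316, 333 and 344 CPM in the LK MT libraries and at 254, 258 and 255 in the WT libraries. The groups did not overlap, and the WT libraries were nearly level. The log2 fold change was 0.41 ± 0.07 (SE; adjusted p = 0.000567 by edgeR). The next B1 elements in age also separated: B1_Mus1 stood at 777, 791 and 808 CPM in MT against 648, 671 and 695 in WT (log2 0.27 ± 0.07, adjusted p = 0.0126 by edgeR). B1_Mus2 stood at 611, 624 and 642 against 504, 520 and 538 (0.30 ± 0.07, adjusted p = 0.00737 by edgeR).

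The 3 young B2 subfamilies separated as well. B2_Mm2 stood at 1159, 1366 and 1212 CPM in MT against 959, 908 and 873 in WT (log2 0.48 ± 0.08, adjusted p = 0.000585 by edgeR). B2_Mm1t stood at 994, 1191 and 1014 against 847, 785 and 732 (0.47 ± 0.09, adjusted p = 0.00103 by edgeR). B2_Mm1a stood at 1404, 1663 and 1370 against 1242, 1186 and 1040 (0.39 ± 0.09, adjusted p = 0.00659 by edgeR). MT replicate 2 was the highest library in all 3, and in none did the groups overlap. Over all TE subfamilies, 23.1% were higher in MT without overlap.

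**Figure D2:**
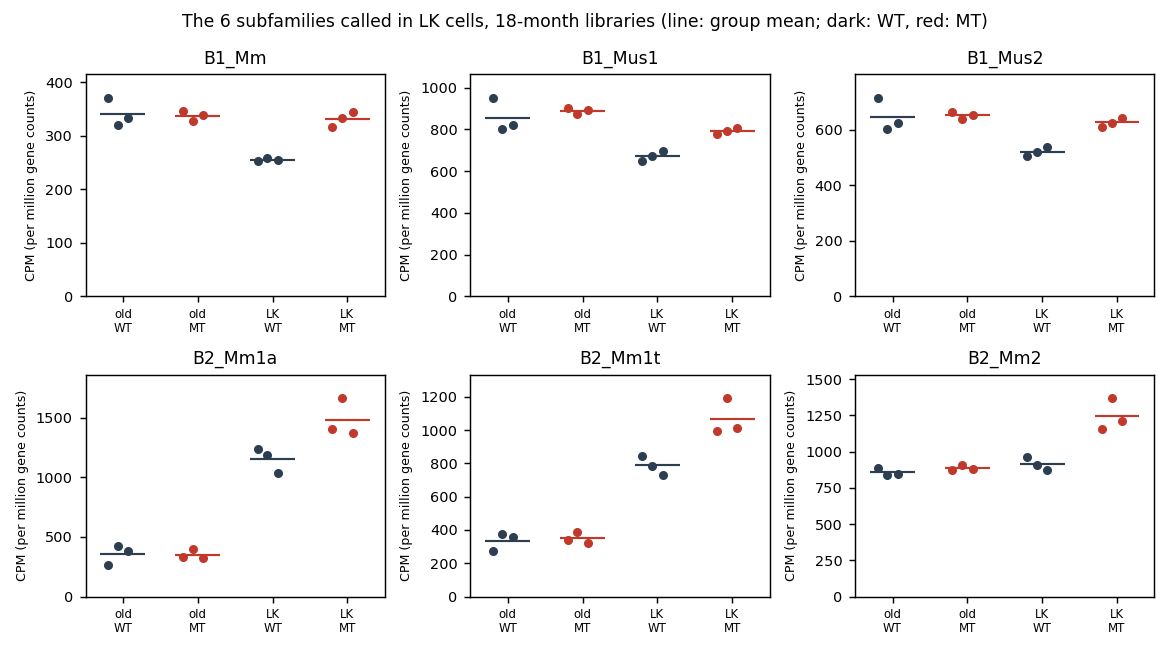
CPM of the 6 SINE subfamilies called in LK cells, in the 12 libraries of 18 months; each point is 1 library and each line a group mean. LK MT libraries lie above LK WT libraries in all 6 panels, while old Cd11b MT and WT libraries overlap.

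The older members of the same families had smaller values. B3, the older B2 relative, stood at 1014, 998 and 996 CPM in LK MT and at 930, 1067 and 1087 in WT, with a log2 fold change of 0.00 ± 0.08 (adjusted p = 0.997 by edgeR), and B3A was at -0.06 ± 0.08. The 4 B1_Mur rows had log2 fold changes from -0.04 to 0.08, the 3 B1F rows from -0.05 to -0.03, and the 5 PB1 rows from -0.07 to -0.03. The B4 family, which includes the composite ID_B1, ranged from -0.04 to -0.01, and the 4 MIR rows from -0.12 to -0.02. The lowest values belonged to AmnSINE2 (-0.37 ± 0.24), which had only 0.92 ± 0.17 CPM in MT (SD, n = 3), and to ID (-0.18 ± 0.08), with 30.1, 27.5 and 30.6 CPM in MT and 29.4, 35.2 and 37.6 in WT. Neither passed the test (adjusted p = 0.304 and 0.145 by edgeR), and both overlapped between groups.

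**Figure D3:**
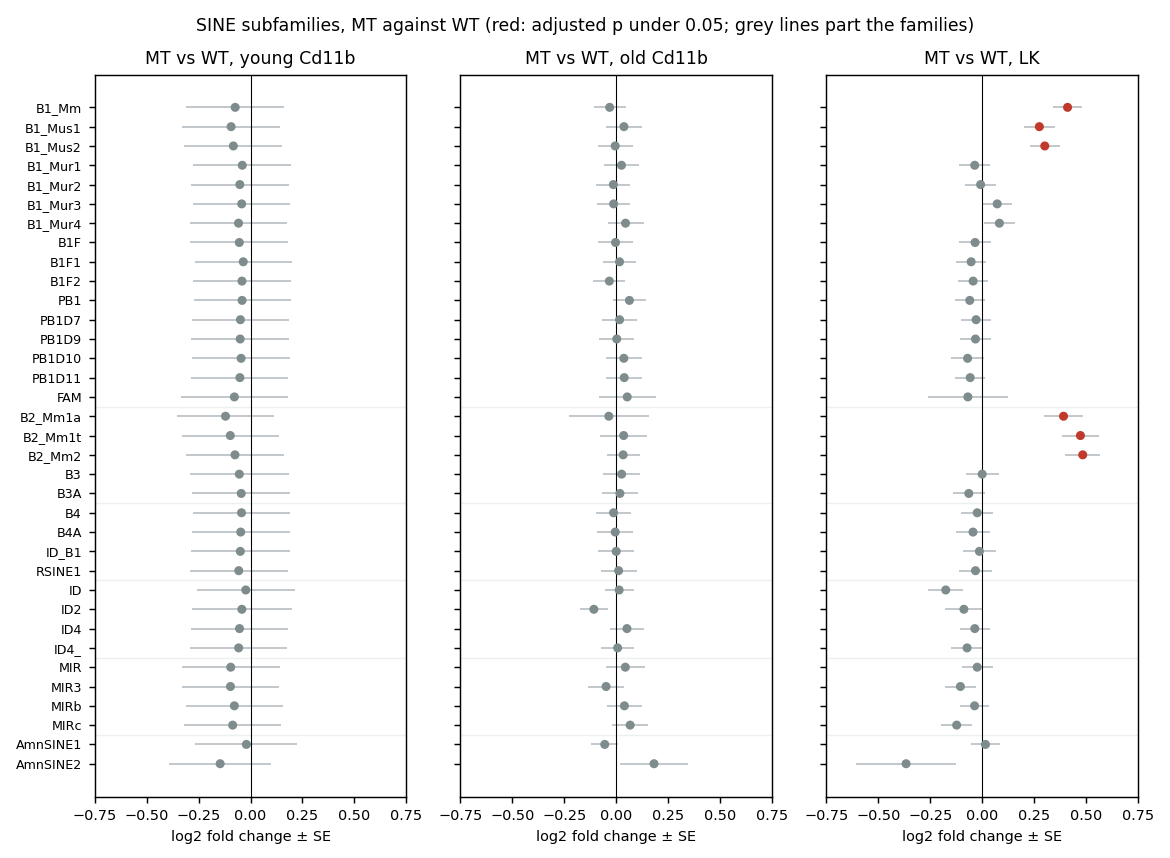
Log2 fold change of MT over WT with its SE for the 35 SINE subfamilies in young Cd11b, old Cd11b and LK cells, ordered by family and, in the Alu and B2 families, from young to old. The 6 called subfamilies (red, log2 0.27 to 0.48) are in the LK panel; values of young Cd11b cells carry the widest errors.

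Within a library, B1_Mm can be set against the other Alu-family rows, which needs no scaling by gene counts. B1_Mm made up 7.05%, 7.47% and 7.52% of Alu-family counts in the LK MT libraries and 6.36%, 5.83% and 5.62% in the LK WT libraries. The log2 ratio of B1_Mm to the other 15 rows was higher in MT by 0.33, with an SD of 0.08 within groups and no overlap. Against the B1_Mur rows the difference was 0.38, and against the PB1 rows, the oldest of the 3 references, it was 0.46. In young cells the same difference was -0.02 and in old Cd11b cells -0.05, both with overlap. The young B2 subfamilies made up 70.3%, 73.9% and 70.7% of B2-family counts in LK MT and 68.5%, 63.9% and 61.6% in LK WT libraries.

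**Figure D4:**
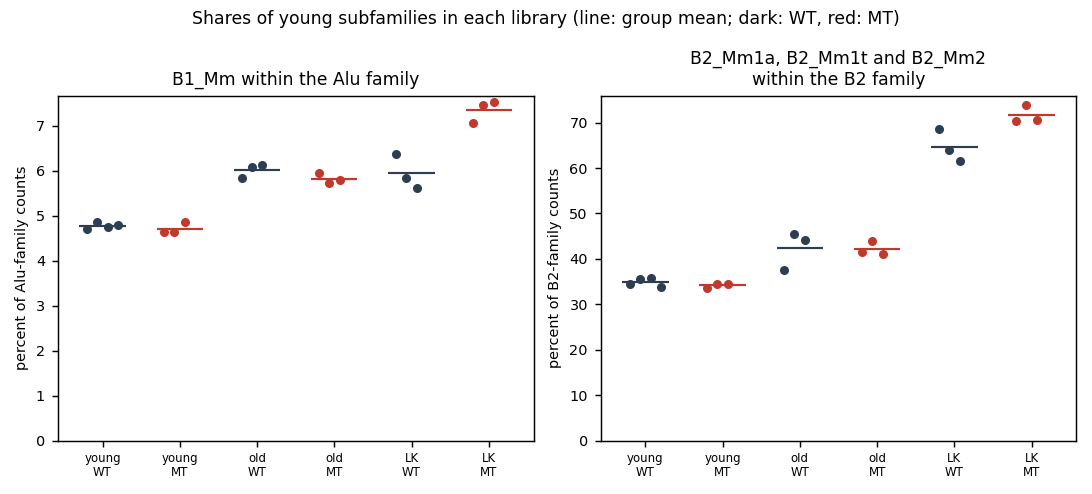
Left, B1_Mm as a percent of Alu-family counts; right, B2_Mm1a, B2_Mm1t and B2_Mm2 as a percent of B2-family counts; each point is 1 library and each line a group mean. LK MT libraries are highest in both panels (7.05% to 7.52% and 70.3% to 73.9%), and young Cd11b libraries lowest.

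The LK calls depended on the libraries in the fit. No SINE subfamily was called in a fit of all 19 libraries (5 at an unadjusted p under 0.05) or with replicates 2 and 3 of each group summed (6 unadjusted), where B1_Mm had adjusted p = 0.0977 and 0.0867 by edgeR (9.67e-07 to 0.0977 over its 13 alternatives). It was 3 subfamilies without MT replicate 2 and 3 without WT replicate 2. Without WT replicate 1, 28 were called. The share of all TE subfamilies given above belongs to the fit of all 6 LK libraries, and none is given for this one. The count is therefore not read as particular to SINEs. Of the 6 young ones 5 were higher (B2_Mm1a was not called, adjusted p = 0.0861 by edgeR), and 23 older ones were lower, from AmnSINE2 (-0.64) and ID (-0.28) to B1_Mur2 (-0.10). WT replicate 1 had the lowest SINE level per gene count of the 6 LK libraries (11.5 per 1000). B3 was at -0.08 ± 0.04 without it and at 0.00 ± 0.08 with it.

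Other RNAs also differed between MT and WT in LK cells. The nuclear RNAs Kcnq1ot1, an imprinted antisense transcript, and Malat1 were higher in MT, at 34.5 ± 2.4 against 20.3 ± 1.6 CPM (SD, n = 3; log2 0.80, adjusted p = 0.00421 by edgeR) and 558 ± 28.5 against 413 ± 16.5 CPM (0.47, adjusted p = 0.00627 by edgeR). Of 6 listed nuclear-retained RNAs, 5 were tested, 2 were higher and none lower, where 29.8% of all genes were called (13.9% higher, 15.9% lower). Neat1 overlapped between the groups, at 94.6 ± 14.0 in MT against 91.5 ± 0.7 CPM in WT. Genes whose symbol begins with Hist, most of which give mRNA without a poly(A) tail, summed to between 297 and 304 CPM in MT and between 211 and 249 in WT. Myeloid markers summed to between 2404 and 5441 CPM in MT and between 1468 and 2121 in WT; of 8 tested, S100a8, Ly6c2 and Csf3r were higher and Csf1r lower, beside the same 29.8% of all genes, and no defining marker was at 0. The sums of progenitor markers (14531 to 16664 against 13292 to 14088 CPM) and T and NK cell markers (233 to 284 against 194 to 227) were also higher in every MT library. That of erythroid markers was lower (1747 to 1912 against 2084 to 2125). By member, 2 of 6 progenitor markers were higher and 1 lower, with a median log2 fold change of -0.003. Of 4 tested T and NK cell markers 1 was higher, and of 4 tested erythroid markers 1 was lower. The sums of B cell, megakaryocyte and stromal markers overlapped. By member, 1 of 5 B cell markers and 1 of 4 megakaryocyte markers were higher, and 1 of 4 stromal markers was lower. The RNA polymerase III transcripts Rn7sk (0.90 to 1.15 against 0.39 to 0.50 CPM), Rmrp (0.15 to 0.43 against 0.08 to 0.12) and Rpph1 (2.43 to 2.86 against 1.73 to 1.93) were higher in every MT library, all at low levels. The share of all genes that separate in this way is not given here. The part of these differences in the SINE values was not tested.

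In Cd11b cells no SINE subfamily was called between MT and WT at either age by edgeR, none had an unadjusted p under 0.05, and DESeq2 called none. Among all TE subfamilies, 0% were called in young and 0.458% in old cells. In young cells all 35 log2 fold changes were below 0, from -0.15 (AmnSINE2) to -0.02 (AmnSINE1), with a median of -0.05 beside -0.04 over all TE subfamilies and SEs of at least 0.23. Among all TE subfamilies 34.5% were above 0. The sign rests on single libraries: the SINE median was 0.11 without WT replicate 4 and -0.21 without MT replicate 3. B1_Mm ranged from 1035 to 1467 CPM in young MT and from 1018 to 1644 in young WT libraries, with a log2 fold change of -0.07 ± 0.23. The same 2 young libraries as above gave the highest values. In old cells the values ran from -0.11 (ID2) to 0.18 (AmnSINE2), with a median of 0.02 beside -0.02 over all TE subfamilies, and B1_Mm was at 347, 327 and 339 CPM in MT and 370, 320 and 332 in WT (-0.03 ± 0.08).

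ID2 was the SINE row in which old MT libraries (34.7, 34.3 and 34.0 CPM) lay below all old WT libraries (38.7, 35.5 and 35.5), and it was not called (adjusted p = 0.634 by edgeR). Over all TE subfamilies, 9.74% were lower without overlap. Without WT replicate 1, which had the highest SINE level of the old set (16.2 per 1000 gene counts), 18 SINE subfamilies were called higher in old MT cells, with log2 values from 0.08 (B4A) to 0.43 (AmnSINE2). B1_Mus1 was among them, and B1_Mm was not. The share of all TE subfamilies called in this fit is not given here, so the 18 calls are not read as particular to SINEs.

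The test of the difference between cell types asked whether the MT effect at 18 months was larger in LK than in Cd11b cells. B1_Mm (difference 0.44 ± 0.11, adjusted p = 0.00878) and B2_Mm2 (0.44 ± 0.12, adjusted p = 0.0136) passed it by edgeR, and both differences were positive. They are 2 of 35, or 5.71%, beside 12.5% of all TE subfamilies tested. With library sizes and factors from the TE counts it was 3 higher and 2 lower. B2_Mm1t (0.43 ± 0.16), B2_Mm1a (0.42 ± 0.23), B1_Mus2 (0.30 ± 0.11) and B1_Mus1 (0.23 ± 0.11) did not pass, with adjusted p from 0.0776 to 0.29 by edgeR. At the other end stood AmnSINE2 (-0.55 ± 0.30) and MIRc (-0.20 ± 0.12), also not called. Without Cd11b WT replicate 1 the count was 6, without LK WT replicate 1 it was 4 and without LK MT replicate 1 it was 4. The difference of the MT effect between old and young Cd11b cells was called for 0 SINE subfamilies by edgeR (0 at an unadjusted p under 0.05; 0 by DESeq2), as for 0% of all TE subfamilies, with a median of 0.06.

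Across the 6 groups the mean level of B1_Mm fell in the order young WT (1226 ± 294 CPM, SD, n = 4), young MT (1193 ± 238, n = 3), old WT (341 ± 26, n = 3), old MT (338 ± 10, n = 3), LK MT (331 ± 14, n = 3) and LK WT (255 ± 2, n = 3). The young groups overlapped with each other. The old WT, old MT and LK MT groups overlapped, and LK WT lay below all of them. B2_Mm1a had another order, with LK MT (1479 ± 160 CPM) and LK WT (1156 ± 104) above young WT (1085 ± 79) and young MT (1027 ± 72), and old WT (357 ± 83) and old MT (352 ± 42) lowest. LK WT and the young groups overlapped there, as did the old groups. These CPM carry none of the factors of the fits, and the order between cell sets depends on them. For LK WT against old WT, B1_Mm was -1.15 in the fit and -0.42 as a log2 ratio of mean CPM. B2_Mm1a was 0.97 and 1.70. LK and young cells were not compared in a fit.

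Among WT libraries of 18 months, LK cells were compared with Cd11b cells. All 35 SINE subfamilies were called, beside 86.2% of all TE subfamilies, 33 of them lower in LK cells and 2 higher (81% and 5.25% of all TE subfamilies). The higher ones were B2_Mm1a, at 1242, 1186 and 1040 CPM in LK against 262, 422 and 386 in Cd11b cells (log2 0.97 ± 0.15, adjusted p = 1.46e-05 by edgeR), and B2_Mm1t, at 847, 785 and 732 against 276, 375 and 358 CPM (0.50 ± 0.12, adjusted p = 0.00124 by edgeR). The groups did not overlap in either, beside 14.7% of all TE subfamilies that were higher without overlap. MIR3 was lowest, at 73.2, 85.4 and 90.2 CPM in LK and 319, 253 and 257 in Cd11b cells (-2.47 ± 0.12, adjusted p = 1.03e-11 by edgeR), followed by B4 (-1.72 ± 0.11). The SINE median was -1.19, beside -1.27 over all TE subfamilies.

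These fold changes depend on scaling. TMM factors, which assume that most genes do not differ, were 0.77 to 0.78 for Cd11b and 1.28 to 1.30 for LK libraries, and they moved the SINE median from -0.45 (ratio of mean CPM) to -1.19. B2_Mm2, at 913 ± 43 CPM in LK and 856 ± 28 in Cd11b cells, was -0.64 ± 0.10 in the fit and 0.09 as a ratio of mean CPM. With library sizes and factors from the TE counts themselves, 18 were called, 12 higher and 6 lower in LK cells. B2_Mm1a and B2_Mm1t were higher, and MIR3 and B4 lower, under each of these scalings.

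**Figure D5:**
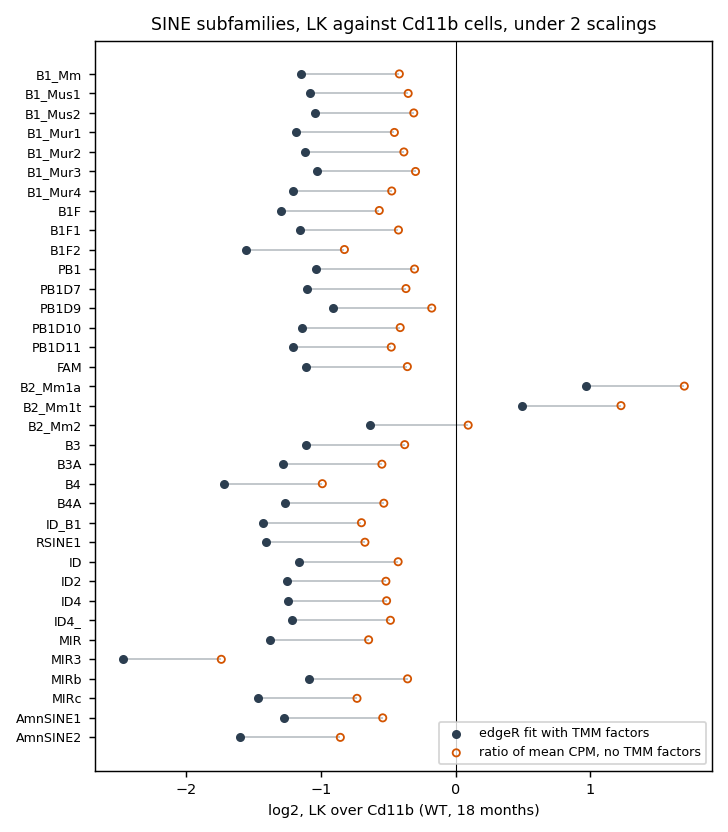
Log2 of LK over Cd11b cells (WT, 18 months) for the 35 SINE subfamilies, from the edgeR fit with TMM factors (filled) and as the ratio of mean CPM (open). B2_Mm1a (0.97 and 1.70) and B2_Mm1t (0.50 and 1.23) lie above 0 on both scales, MIR3 is lowest on both (-2.47 and -1.74), and B2_Mm2 changes sign (-0.64 and 0.09).

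Old and young Cd11b cells of WT mice differed in nearly all members: 34 of 35 SINE subfamilies were lower in old cells by edgeR, beside 91.5% of all TE subfamilies called (89.5% lower, 1.98% higher). The SINE median was -1.96 and that of all TE subfamilies -2.12. AmnSINE2 (-2.93 ± 0.26) and MIRb (-2.30 ± 0.23) fell furthest, and B1_Mm fell by 1.58 ± 0.22 on the log2 scale, from 1226 ± 294 (n = 4) to 341 ± 26 CPM (n = 3). AmnSINE1, an ancient element, was the exception: it stood at 63.2, 53.2, 51.3 and 72.6 CPM in young and 59.2, 61.8 and 61.9 in old WT libraries (0.28 ± 0.22, adjusted p = 0.202 by edgeR).

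The young libraries also differed in the RNAs they hold. The 7SK row of the TE counts, an RNA without a poly(A) tail, stood at 6124 to 11880 CPM in young libraries and at 3.33 to 5.37 in those of 18 months. The RNA polymerase III transcripts Rmrp (1065 to 2269 CPM) and Rpph1 (6082 to 7255) were at most 0.43 and 2.86 CPM at 18 months, and Hist genes summed to between 11885 and 14137 against at most 441 CPM. Markers of cell types differed too: in young and old WT libraries, myeloid markers summed to between 35975 and 45722 and between 93943 and 116164 CPM, progenitor markers to between 3418 and 5882 and between 1083 and 1131, B cell markers to between 98.7 and 226 and between 38.1 and 54.5, and T and NK cell markers to between 53.2 and 82.7 and between 24.9 and 28.9. Library type, cell makeup and age cannot be told apart here. With library sizes and factors from the TE counts, 23 SINE subfamilies were called, 19 of them higher and 4 lower in old cells, and B1_Mm was at 0.50. Bc1, the ID relative printed above, went the other way from the ID rows, with 1 to 8 counts in young libraries, 223 to 341 in old and 602 to 1259 in LK libraries. Its level was 0.03 to 0.21, 4.19 to 7.21 and 18.9 to 25.0 CPM.

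The subfamilies most like B1_Mm over all 19 libraries, by Pearson's r of log2 CPM, were B1_Mus2 (0.999), B1_Mus1 (0.998), B1_Mur3 (0.993), B1_Mur4 (0.991) and B3 (0.990) among SINEs. Outside the class they were MTA_Mm (0.998) and ORR1A4 (0.996), both LTR elements of the ERVL-MaLR family, RMER5 (0.996), an LTR element of ERV1, and the LINE elements L1ME1 (0.996) and L2c (0.996). These values are a description: the libraries share the gap between young and 18-month sets. With the mean of each cell set subtracted, a measure added after the values were seen, the leading SINE rows were B1_Mus2 (0.983), B1_Mus1 (0.970) and B2_Mm2 (0.955). Rows outside the class were as close: MTA_Mm (0.968), the DNA element MER5B (0.956), the LINE elements L1_Rod (0.949) and L1M2 (0.948), and the LTR element MT2C_Mm (0.949).

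The genes that make, silence or bind SINE RNA were read from 3 lists in LK cells, where 29.8% of 14130 genes were called (13.9% higher, 15.9% lower). Of 23 genes of the RNA polymerase III machinery, 2 were higher in MT and 11 lower, with a median log2 fold change of -0.07 beside 0.02 over all genes. Bdp1, a TFIIIB subunit, fell from 76.5 ± 4.8 to 54.0 ± 2.1 CPM (SD, n = 3; log2 -0.47 ± 0.05, adjusted p = 0.00581 by edgeR). The TFIIIC genes Gtf3c3 (-0.42) and Gtf3c4 (-0.24) and the polymerase subunit genes Polr3a (-0.30) and Polr3b (-0.20) fell too. The higher ones were Maf1, a repressor of RNA polymerase III (0.14), and Polr3gl, a subunit isoform (0.28).

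Of 13 tested genes that silence SINE chromatin, 7 were lower in LK MT cells and none higher, with a median of -0.16. Dnmt1, the maintenance DNA methyltransferase, fell from 547 ± 49 to 413 ± 19 CPM (log2 -0.37 ± 0.06, n = 3, adjusted p = 0.00757 by edgeR). Adnp (-0.25) and Chd4 (-0.30), which form a complex with HP1 proteins, Setdb1 (-0.22), an H3 lysine 9 methyltransferase, and Hells (-0.16), a chromatin remodeler of DNA methylation, fell too, as did Ehmt1 (-0.20) and Cbx3 (-0.16). Of 19 genes for binding, editing or sensing of SINE RNA, 3 were higher and 5 lower, with a median of 0.02. Srp9, whose product binds 7SL and B1 RNA, rose from 97.1 ± 7.6 to 117.5 ± 4.5 CPM (log2 0.31 ± 0.07, n = 3, adjusted p = 0.0137 by edgeR), with Srp14 (0.29) and Ilf2 (0.18). Among those that fell were the helicase gene Dhx9 (-0.34), Dicer1 (-0.36), the double-stranded RNA kinase gene Eif2ak2 (-0.38) and the editing enzyme gene Adar (-0.19).

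The shares of the 3 lists called in LK cells are to be read beside the background of 29.8%, and the lists were not tested as sets. With all LK libraries 28 genes of the lists were called, and without 1 library the count ran from 8 to 39. It was 9 without MT replicate 2, 9 without MT replicate 3, 8 without WT replicate 2 and 8 without WT replicate 3. These counts take all genes of the 3 lists, not only the 28. None was called with replicates 2 and 3 summed (20 at an unadjusted p under 0.05), where Bdp1 had adjusted p = 0.175 by edgeR (1.89e-11 to 0.175 over its 12 alternatives, with log2 fold changes from -0.53 to -0.44). In Cd11b cells no gene of the 3 lists was called at either age by edgeR (0 and 9 at an unadjusted p under 0.05; 0 and 0 by DESeq2), beside 0% of all genes in young and 0.336% in old cells. Without old WT replicate 1 it was 6 genes in old cells, and without old MT replicate 1 it was 1.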

How the data were processed

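RNA was sequenced in 19 libraries from mouse bone marrow, made with a directional kit from total RNA, per the labels' protocols. For each library the authors deposited counts per gene and counts per TE subfamily as whole numbers. STAR, HTSeq, DESeq2 and mm10 are named in the submitters' processing notes; their versions and roles, the repeat annotation and the treatment of multi-mapping reads are not given in the sources used here. Near-identical young copies could share such reads.

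Groups were taken from the titles. The TE header of young MT replicate 3 has a name of another form, and its GEO label was followed. Libraries of a group differed by a chi-square per degree of freedom of at least 2.24 over TE subfamilies and 2.92 over genes (21 pairs), so all were kept. Replicates 2 and 3, the closest pair in each MT and WT group of 18 months, were summed as an alternative. Same-numbered libraries did not deviate together, so the numbers were not treated as pairs.

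TE counts were tested with edgeR 4.0.16 (R 4.3.3; filterByExpr, robust quasi-likelihood), using library sizes and TMM factors from the filtered gene counts of the same libraries, with Benjamini-Hochberg adjustment over all TE subfamilies (over all genes for genes). In all 7 comparisons were fitted, each on its own libraries, with 0.05 as the threshold of the adjusted p for a call. The SE is the size of the log2 fold change divided by the square root of F. Printed CPM carry no TMM factor. The fits were tested on simulated data. Alternatives were RLE factors, no filter, DESeq2 1.42.0, TE-count factors, a replicate block, all 19 libraries together, summed replicates 2 and 3, and leaving out libraries. Members, age groups and gene lists were chosen with earlier results of these data known. All 35 members are described; named are the called ones, the extremes of each comparison, the 5 rows most like B1_Mm inside and outside the class (at least 10 CPM in every group), and up to 5 genes per list by smallest p, with further called genes and Bc1 chosen after their values were seen. Lsh and Rigi on the lists are other names of Hells and Ddx58 and matched no row. Figures were drawn with matplotlib 3.10.9. Some items of the lists are not reported here.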

Additional observations from a re-analysis of the deposited data

Results flagged for a closer look

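The effect of MT differed between LK and Cd11b cells at 18 months for 2 SINE subfamilies, by the test of that difference. They are 5.71% of the 35 SINE rows, beside 12.5% of all TE subfamilies tested. For B1_Mm, MT minus WT was higher in LK cells by 0.44 on the log2 scale (adjusted p = 0.00878 by edgeR), with MT above WT in every LK library and overlap in Cd11b cells. For B2_Mm2 the difference was 0.44 (adjusted p = 0.0136 by edgeR), with the same pattern. A rule for outlying libraries was applied to SINE values of the young WT group, the 1 group with 4 libraries, and it singled out none. With 4 values the rule asks for a gap that spans most of their range, so it cannot show that no library stood apart. Young WT replicate 4 had the highest SINE level of its group, and the young SINE median changed sign without it, as given above.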

How the results depend on the processing

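The counts of called SINE subfamilies were recomputed under each alternative. The shares of all TE subfamilies called under the alternatives are not given beside them. In LK cells 6 were called, as also with the replicate block, and 0 in the fit of all 19 libraries, 0 with replicates 2 and 3 summed, and 3 to 28 without 1 library. In old Cd11b cells leaving out 1 library gave 0 to 18, and in young cells 0 to 0. For the genotype by cell type difference the count was 2, with 5 under TE-count factors, 0 with the replicate block (4 at an unadjusted p under 0.05; B1_Mm 0.43 and B2_Mm2 0.44, adjusted p = 0.0627 and 0.0701 by edgeR) and 2 to 6 without 1 library. For LK against Cd11b cells it was 35, and 18 under TE-count factors, where B2_Mm2 turned to 0.64. In old against young cells B1_Mm turned to 0.50 under those factors. For the gene lists in LK cells 28 were called, with 0 under the replicate block, 17 in the fit of all 19 libraries, 0 with summed replicates and 8 to 39 without 1 library. In old cells the lists gave 0 to 6 without 1 library. The log2 ratio of B1_Mm to older B1 in LK cells moved from 0.33 to 0.46 with the PB1 rows as reference, and the cause of these changes was not tested. The block moved no other count of calls by over 1.5 times. Same-numbered libraries correlated in their deviations between -0.42 and 0.29 over TE subfamilies, so the numbers are only names. FAM and AmnSINE2 stood below 3 CPM at 18 months, which limits their precision.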
